A study of Mus musculus with 14 samples.

Results

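The 9 genes described here encode proteins that cut, or that control the cutting of, the matrix around cells. They comprise 5 matrix metalloproteinases (Mmp12, Mmp13, Mmp14, Mmp19 and Mmp25), 3 tissue inhibitors of metalloproteinases (Timp1, Timp2 and Timp3) and 1 membrane-bound metalloproteinase of the ADAM family (Adam8). They were chosen by symbol, with the changes of both comparisons already known, from 55367 gene symbols in each of 2 count tables. All 9 are in both tables and passed the filter on low counts in both. Because their levels and fold changes served to choose them, these are given as a description, without p-values. How many passed the threshold of the test over all genes is given beside the share or count for all genes, and nothing is drawn from it.

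Polyadenylated RNA was sequenced from lineage-negative mouse bone marrow cells, the stem and progenitor fraction left after mature blood cells are removed. All cells were of wild-type genotype, were grown in IMDM with serum, SCF, IL6 and IL3, and carried a pSMAL lentiviral construct. In the first experiment 3 libraries came from cells given luciferase as a control and 3 from cells given SETBP1-D868N, a mutant form of the nuclear protein SETBP1. In the second experiment all cells carried SETBP1-D868N, and 4 libraries came from cells kept with the solvent DMSO and 4 from cells kept with 2.5 µM PF-9363, an inhibitor of MYST-family histone acetyltransferases, for 4 days. Strain, age and sex of the mice, the promoter that drives the construct and the number of separate transductions are not given in the sources used here. Standard errors and p-values therefore measure the spread between these libraries, which may be technical.

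Matrix metalloproteinases are zinc enzymes made as inactive precursors and switched on by removal of a propeptide. Tissue inhibitors of metalloproteinases bind the active site and also take part in activation, since Timp2 links the membrane enzyme Mmp14 to the precursor of Mmp2. In bone marrow these enzymes are made by macrophages, neutrophils, osteoclasts and stromal cells, and are known for matrix turnover and for the release of stem cells into the blood. ADAM proteases such as Adam8 cut the outer parts of membrane proteins, a process called shedding.

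The libraries with luciferase or SETBP1-D868N held 60147266 to 68730322 counts each and those with DMSO or PF-9363 only 7083731 to 10359093, so low genes are measured less precisely in the latter. Levels are CPM, the usual scaling of counts to a common library depth, with totals scaled by the trimmed mean of M-values (TMM). A floor of 3 counts stands at 0.0447 to 0.0505 CPM in the first experiment and 0.272 to 0.467 CPM in the second, for counting error only. The tables were scaled separately, with other RNA input and library preparation, so levels across the experiments are set side by side without a test. Luciferase library 1 stood apart from the other luciferase libraries, at 32.3 and 33.0 chi-square per degree of freedom against 2.44 between libraries 2 and 3. Without it the members' log2 fold changes with SETBP1-D868N lay between -0.96 (Timp1) and -0.15 (Mmp19). The row Setbp1 held 5 to 6 counts with luciferase and 20 to 24 with SETBP1-D868N, and 0 to 2 in the second experiment; whether it includes the transgene is not known.

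Mmp12 and Mmp13 are neighbours on chromosome 9 (GRCm38, GENCODE release M21, both plus strand), at 7344381 to 7369499 and 7272514 to 7283331, with 61.05 kb between them. Mmp14 lies on chromosome 14 at 54431612 to 54445364 (plus), Mmp19 on chromosome 10 at 128790910 to 128800824 (plus) and Mmp25 on chromosome 17 at 23628311 to 23645277 (minus). The inhibitor genes Timp1 at 20870166 to 20874735 on chromosome X (plus) and Timp3 at 86300372 to 86349506 on chromosome 10 (plus) each lie inside a synapsin gene on the other strand. Timp2 lies on chromosome 11 at 118301069 to 118355740 (minus), and Adam8 on chromosome 7 at 139978932 to 139992562 (minus).

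The 250 bases before the annotated start were read for 8 of the 9 members from RefSeq (GRCm38.p6). Mmp12 has 2 starts there, and Mmp19 was not matched. They are shown because the 2 neighbours on chromosome 9 differ from the other members in base composition and in motif letters. The AP-1 motif (TGANTCA, both strands) is in capitals for Mmp13 at chr9:7272264-7272513, where its first base is 35 bases before the start, and for the second Mmp12 start at chr9:7347124-7347373, where it is 44 bases before.
Mmp13: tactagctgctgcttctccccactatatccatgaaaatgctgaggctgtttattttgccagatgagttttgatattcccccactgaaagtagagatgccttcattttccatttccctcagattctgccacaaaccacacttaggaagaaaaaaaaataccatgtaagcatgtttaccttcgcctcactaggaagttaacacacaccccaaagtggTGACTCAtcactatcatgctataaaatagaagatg
Mmp12: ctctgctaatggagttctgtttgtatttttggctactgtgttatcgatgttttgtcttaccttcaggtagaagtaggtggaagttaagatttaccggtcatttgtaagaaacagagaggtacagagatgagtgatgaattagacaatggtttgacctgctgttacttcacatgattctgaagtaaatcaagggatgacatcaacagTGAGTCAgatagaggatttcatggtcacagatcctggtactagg
The GC box (GGGCGG, both strands) is in capitals for Mmp14 at chr14:54431348-54431597, with copies whose first bases are 19 and 13 bases before the start, and for Adam8 at chr7:139992563-139992812 on the minus strand, 35 bases before.
Mmp14: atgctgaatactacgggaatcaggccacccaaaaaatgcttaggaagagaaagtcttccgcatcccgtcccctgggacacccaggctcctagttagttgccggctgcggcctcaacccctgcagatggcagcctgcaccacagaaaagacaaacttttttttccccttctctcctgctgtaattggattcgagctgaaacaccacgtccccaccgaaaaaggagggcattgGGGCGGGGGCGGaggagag
Adam8: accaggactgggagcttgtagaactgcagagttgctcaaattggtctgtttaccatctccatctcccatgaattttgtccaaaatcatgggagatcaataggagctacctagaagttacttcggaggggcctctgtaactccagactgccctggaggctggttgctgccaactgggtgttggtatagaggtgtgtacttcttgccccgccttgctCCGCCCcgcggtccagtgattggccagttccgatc

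TGANTCA was found before the start of Mmp13 and before the second Mmp12 start, but not before the first Mmp12 start, at the 5′ end of the gene, nor in the other 6 members read. Mmp12 thus had 2 windows in which to match where the others had 1, and 6.75% of 32851 promoter entries of the same length hold it. GGGCGG was found in Mmp14, Mmp25, Timp1, Timp2, Timp3 and Adam8 and not in Mmp13, against 32.7% of all entries; neither Mmp12 window held it. The GC content was 39.6% to 40.4% for Mmp12 and Mmp13, and from 52.8% (Adam8) to 68% (Timp2) for the other 6. TATAAA was found in Mmp13 alone, 16 bases before its start, against 12.4% of all entries. The second Mmp12 start lies 2993 bases inside the GENCODE gene, so the window before it lies within that gene. Whether this window overlaps an exon was not tested. A match describes the letters of these windows and is not a measured binding site.

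With SETBP1-D868N, all 9 members stood lower than with luciferase, and the groups did not overlap for any of them. The median log2 fold change of the 9 was -0.58, against 0.0043 for all 15794 genes tested. By edgeR's quasi-likelihood test with Benjamini-Hochberg adjustment, called at an adjusted p under 0.05, 7 of the 9 counted as lower, where 22.7% of all genes did. Groups failed to overlap in the lower direction in 27.3% of all genes. The members were chosen on this contrast, so nothing is read from these counts. With PF-9363, the 9 had a median log2 fold change of 1.45, against -0.04 for all 13456 genes tested. There 7 counted as higher, where 36.6% of all genes did, and 6 had groups that did not overlap, where 34.0% of all genes did so in that direction. With PF-9363, 76.0% of genes were called in either direction, and 47.2% with SETBP1-D868N. The calls split into 3869 higher and 3579 lower in the first comparison, and into 4905 and 2997 when counts were scaled by library size alone. In the second they split into 4921 higher and 5307 lower, and into 3775 and 6653 by library size alone, which moved the median log2 fold change of all genes by -0.23. In bulk RNA, fewer cells of a type and less RNA per cell cannot be told apart.

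**Figure D1:**
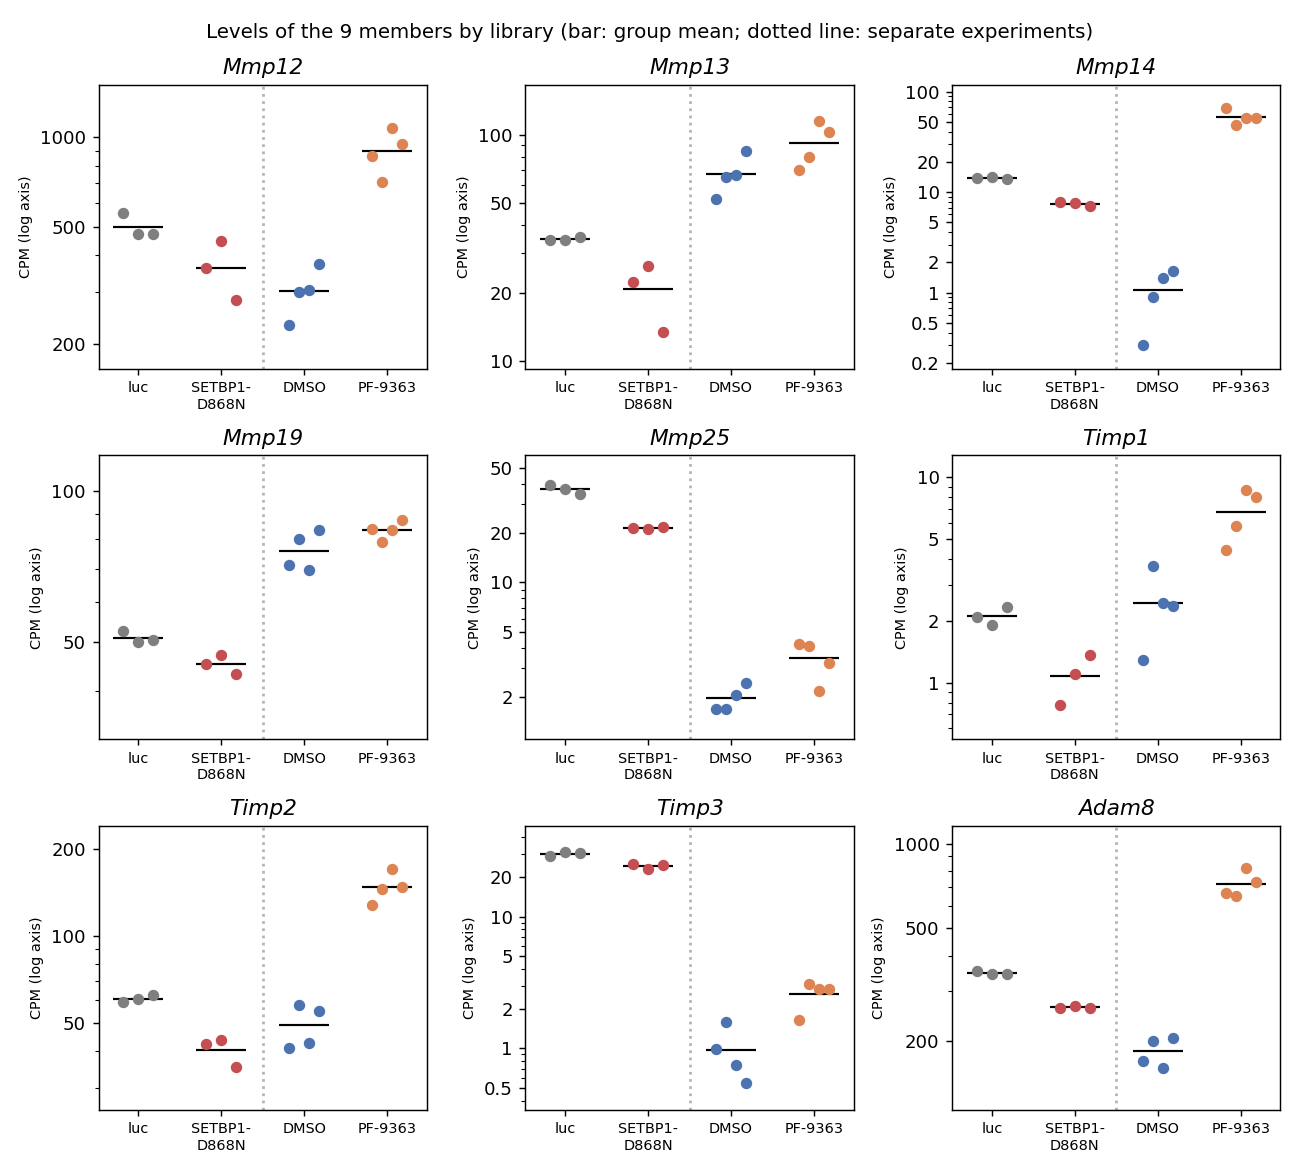
Level of each of the 9 members in CPM (vertical log axis, scaled separately per experiment) in each library, with points for libraries and bars for group means. Mmp14 sat between 0.297 and 1.63 CPM in the 4 DMSO libraries and between 46.1 and 68.4 CPM in the 4 PF-9363 libraries.

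Mmp14, the membrane-anchored collagenase, showed the widest difference of the 9. It stood at 13.8, 14.1 and 13.5 CPM in luciferase libraries 1 to 3 and at 7.92, 7.87 and 7.31 CPM in SETBP1-D868N libraries 1 to 3. Every SETBP1-D868N library was below every luciferase library, and the log2 fold change was -0.84 (SE 0.058). In the second experiment it stood at 0.297, 0.898, 1.40 and 1.63 CPM in DMSO libraries 1 to 4, from 3, 9, 15 and 18 counts. PF-9363 libraries 1 to 4 held 68.4, 46.1, 55.1 and 54.8 CPM, from 664, 358, 354 and 505 counts. The DMSO libraries were thus near the floor, and DMSO 1 was at it. The means were 1.06 ± 0.593 (SD, n = 4) and 56.1 ± 9.18 CPM (SD, n = 4). The fitted fold was 51.7, or 5.69 on the log2 scale (SE 0.22). Leaving out any library kept it between 5.39 and 5.98.

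Mmp12, the macrophage elastase, was the most abundant of the 5 matrix metalloproteinases per kilobase. It stood at 554, 474 and 473 CPM in the luciferase libraries and at 362, 446 and 282 CPM in the SETBP1-D868N libraries. The groups did not overlap, with SETBP1-D868N library 2 the closest to the controls, and the log2 fold change was -0.46 (SE 0.20). With DMSO it stood at 232, 300.1, 306 and 373 CPM, and with PF-9363 at 866, 709.6, 1072 and 947 CPM. Every PF-9363 library exceeded every DMSO library, and the means of 303 ± 57.7 and 899 ± 152 CPM (SD, n = 4 each) went with a fitted fold of 2.97, or 1.57 on the log2 scale (SE 0.18).

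Mmp13, a secreted collagenase, lies next to Mmp12 but moved less with PF-9363. Its levels were 34.2, 34.4 and 35.2 CPM with luciferase and 22.4, 26.4 and 13.4 CPM with SETBP1-D868N. SETBP1-D868N library 3 was the lowest of all, as it was for Mmp12, and the log2 fold change was -0.74 (SE 0.27), or -0.51 without that library. The DMSO libraries held 51.9, 65.3, 66.4 and 84.7 CPM, and the PF-9363 libraries 69.8, 79.9, 115 and 103 CPM. These groups overlapped, at a log2 fold change of 0.44 (SE 0.21), which was 0.33 to 0.57 when a library was left out.

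Mmp19, a secreted enzyme that cuts basement membrane proteins, varied least. It stood at 52.5, 50.0 and 50.5 CPM with luciferase and at 45.2, 47.2 and 43.1 CPM with SETBP1-D868N. The groups did not overlap, at a log2 fold change of -0.18 (SE 0.039). The DMSO libraries held 71.1, 80.1, 69.4 and 83.4 CPM and the PF-9363 libraries 83.7, 79.0, 83.6 and 87.3 CPM. These groups overlapped, at a log2 fold change of 0.13 (SE 0.073). It was -0.10 when counts were scaled by library size alone. Mmp19 shares 789 exonic bases with Tmem198b on the other strand. Tmem198b held 132 to 288 counts in the second experiment and fell with PF-9363 by 0.48 on the log2 scale (SE 0.11, edgeR adjusted p = 0.000288). Strand handling of the counts is not given in the sources used here, so reads of the overlap cannot be assigned to either gene.

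Mmp25, an enzyme anchored to the surface of neutrophils, differed strongly in level between the experiments. It stood at 39.1, 37.2 and 34.6 CPM with luciferase and at 21.5, 21.2 and 21.9 CPM with SETBP1-D868N, a log2 fold change of -0.78 (SE 0.048) with no overlap. Its level with DMSO was 1.69, 1.70, 2.06 and 2.45 CPM, from 17 to 27 counts. With PF-9363 it stood at 4.22, 4.12, 2.18 and 3.25 CPM, from 14 to 41 counts. PF-9363 library 3 lay within the DMSO range, so the groups overlapped at a log2 fold change of 0.81 (SE 0.29). It was 0.70 to 0.97 when a library was left out.

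Timp2, the inhibitor that pairs with Mmp14, was the most abundant of the 3 inhibitors per kilobase in every group. It stood at 59.1, 60.7 and 62.5 CPM with luciferase and at 42.6, 43.8 and 35.4 CPM with SETBP1-D868N, a log2 fold change of -0.58 (SE 0.080). With DMSO it stood at 41.2, 57.8, 42.9 and 55.3 CPM and with PF-9363 at 128, 145, 170.1 and 148 CPM. Neither pair of groups overlapped. The means with DMSO and PF-9363 were 49.3 ± 8.48 and 148 ± 17.5 CPM (SD, n = 4 each), with a fitted fold of 2.98, or 1.58 on the log2 scale (SE 0.12).

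Timp1, a secreted inhibitor that also binds the precursor of Mmp9, was near 2 CPM in the control groups of both experiments. It stood at 2.08, 1.90 and 2.33 CPM with luciferase and at 0.777, 1.10 and 1.37 CPM with SETBP1-D868N, from 51 to 91 counts in the latter. The groups did not overlap, at a log2 fold change of -0.95 (SE 0.19). In DMSO libraries it stood at 1.29, 3.69, 2.44 and 2.36 CPM, from 13 to 37 counts, and with PF-9363 at 4.43, 5.80, 8.72 and 8.03 CPM, from 43 to 74 counts. The lowest PF-9363 library was above the highest DMSO library, and the fitted fold was 2.72, or 1.45 on the log2 scale (SE 0.27). Its host gene Syn1 lies on the other strand with no shared exonic base.

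Timp3, an inhibitor that stays bound to the matrix and also blocks Adam17, was far lower in the second experiment than in the first. It stood at 29.0, 30.7 and 30.4 CPM with luciferase and at 25.0, 23.2 and 24.9 CPM with SETBP1-D868N, with no overlap and a log2 fold change of -0.30 (SE 0.045). With DMSO it stood at 0.992, 1.60, 0.749 and 0.544 CPM, from 6 to 16 counts, and with PF-9363 at 1.65, 3.09, 2.80 and 2.82 CPM, from 16 to 26 counts. These groups were separated only narrowly, by 1.60 against 1.65 CPM. The log2 fold change was 1.40 (SE 0.37). Timp3 shares 1733 exonic bases with Syn3 on the other strand. Syn3 held 10 to 25 counts with DMSO and 5 to 12 with PF-9363, as many reads as Timp3 itself in some libraries, and was not called (log2 fold change -0.63, SE 0.42, edgeR adjusted p = 0.170). How the counting divided reads between the overlapping genes is not known.

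Adam8, a membrane-bound protease of myeloid cells, varied little between libraries of a group in the first experiment. It stood at 353, 344 and 344 CPM with luciferase and at 262, 266 and 262 CPM with SETBP1-D868N, a log2 fold change of -0.40 (SE 0.024). With DMSO it stood at 169, 200.4, 161 and 205 CPM and with PF-9363 at 669, 650.4, 818 and 729.6 CPM. Neither pair of groups overlapped. The means with DMSO and PF-9363 were 184 ± 22.2 and 717 ± 75.6 CPM (SD, n = 4 each), with a fitted fold of 3.90, or 1.96 on the log2 scale (SE 0.087).

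**Figure D2:**
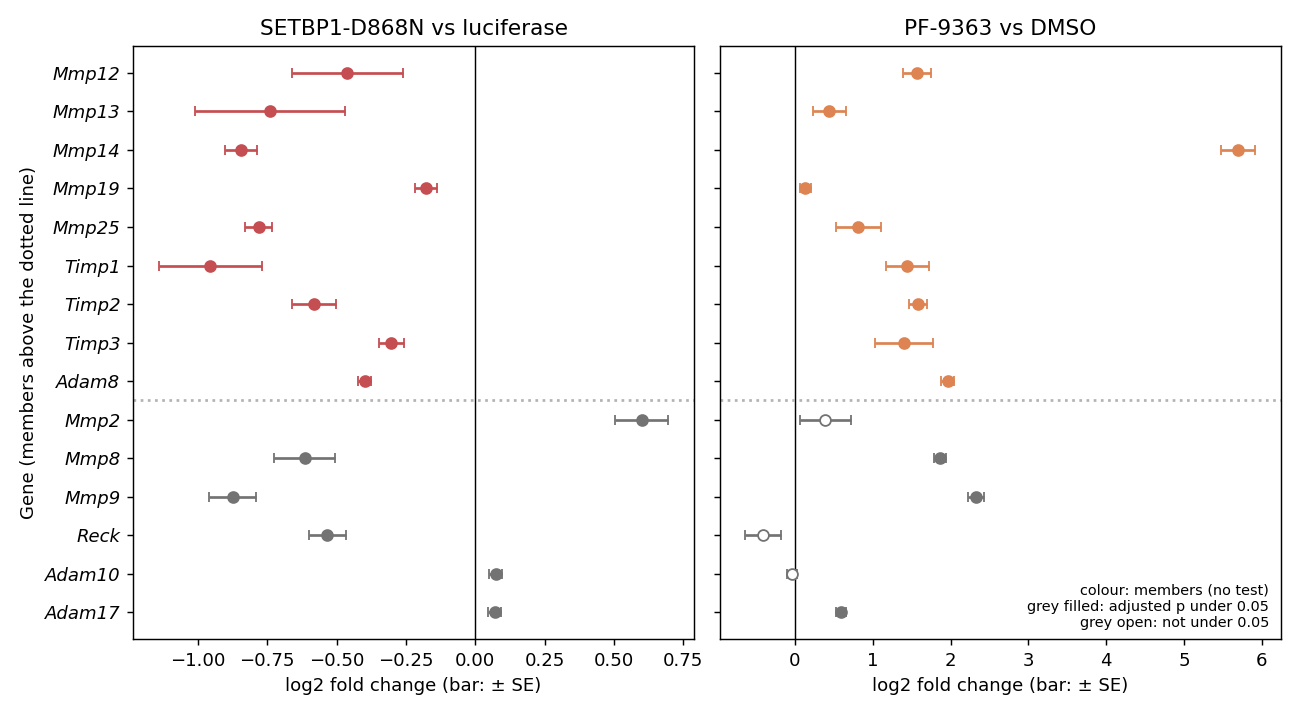
Log2 fold change with its standard error (horizontal axis and bars) of each member, above the dotted line, and of 6 related genes under it, for SETBP1-D868N against luciferase and for PF-9363 against DMSO, with members in colour and without a test, and grey points filled where the adjusted p is under 0.05. All 9 members lie below 0 in the first comparison and above 0 in the second, from 0.13 for Mmp19 (-0.10 when scaled by library size alone) to 5.69 for Mmp14.

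The order of the members by size of change was not the same in the 2 comparisons. Timp1 and Mmp14 had the largest decreases with SETBP1-D868N (-0.95 and -0.84), and Mmp14 and Adam8 the largest increases with PF-9363 (5.69 and 1.96). Mmp19 was smallest in both, at -0.18 and 0.13. Mmp25 was among the larger decreases (-0.78) and among the smaller increases (0.81), and Adam8 the reverse (-0.40 and 1.96). The comparisons share no library, but the DMSO cells also carry SETBP1-D868N, and the opposite signs were known when the members were chosen.

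**Figure D3:**
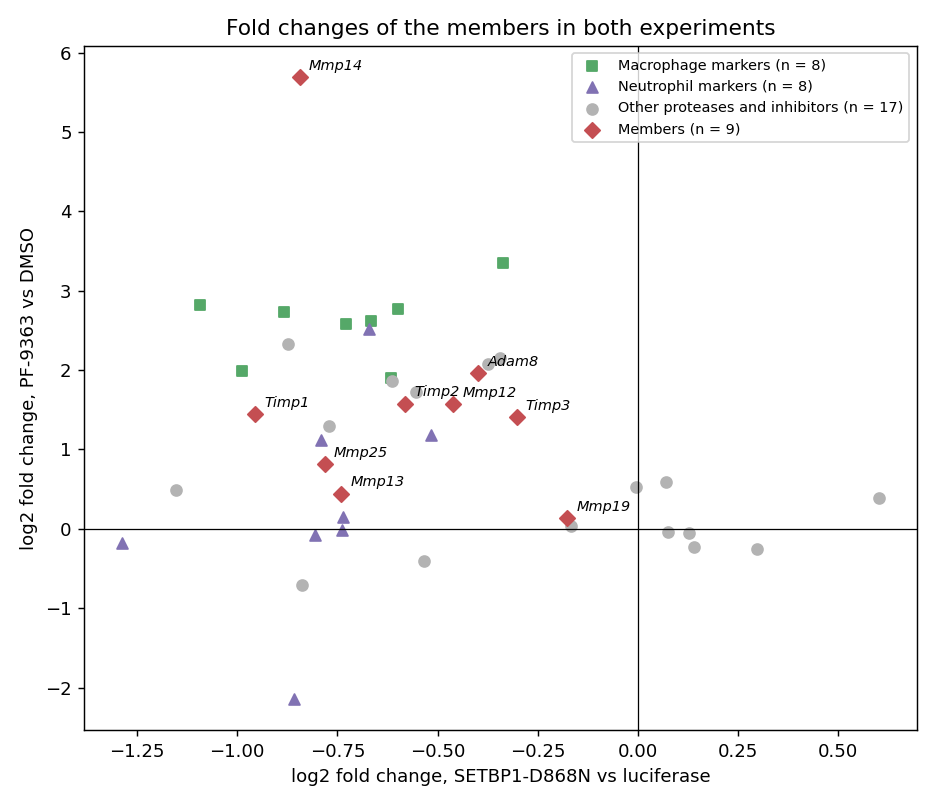
Log2 fold change with SETBP1-D868N (horizontal) against log2 fold change with PF-9363 (vertical) for the 9 members, other proteases and inhibitors, and macrophage and neutrophil markers tested in both experiments. All 9 members lie in the upper left of the plot (Mmp19 at -0.10 with PF-9363 when scaled by library size alone), with Mmp14 apart from the rest at -0.84 and 5.69.

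Dividing CPM by exon length in kilobases allows levels of different genes to be compared roughly. The length joins all annotated exons of a gene and can exceed that of the transcript the cells made, which was not tested. It was 7.237 kb for Mmp12 and 2.673 kb for Mmp13, so levels, shares and ratios of Mmp12 per kilobase may be understated. With luciferase the highest were Adam8 at 74.8 and Mmp12 at 69.1 CPM per kilobase, followed by Timp2 at 15.6, Mmp19 at 14.4 and Mmp13 at 12.9. Mmp25 (6.97), Timp3 (3.69), Timp1 (2.37) and Mmp14 (2.32) were lower. With SETBP1-D868N, Adam8 (56.7) and Mmp12 (50.2) again led, while Timp1 (1.22) and Mmp14 (1.29) were lowest. With DMSO, Mmp12 (41.9) and Adam8 (39.6) led and Mmp25 (0.372), Mmp14 (0.178) and Timp3 (0.119) were lowest. With PF-9363, Mmp14 at 9.41 CPM per kilobase moved above Timp1 (7.59), Mmp25 (0.650) and Timp3 (0.318), behind Adam8 (155), Mmp12 (124), Timp2 (37.9), Mmp13 (34.3) and Mmp19 (23.6).

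The balance between particular members shifted in the second experiment. The ratio of Mmp14 to Timp2, in CPM per kilobase, was 0.149 ± 0.00643 with luciferase and 0.125 ± 0.00909 with SETBP1-D868N (SD, n = 3 each). It was 0.0139 ± 0.00782 with DMSO, between 0.00473 and 0.0214, and 0.253 ± 0.0667 with PF-9363, between 0.208 and 0.351 (SD, n = 4 each). The DMSO libraries lay below those of the other 3 groups, and PF-9363 library 1 was the highest. The DMSO ratios rest on 3, 9, 15 and 18 counts of Mmp14, with DMSO library 1 at the floor, and are imprecise. The ratio of Mmp12 to its neighbour Mmp13 was 5.34 ± 0.554 with luciferase and 6.67 ± 0.983 with SETBP1-D868N (SD, n = 3 each), with overlapping groups. It was 1.67 ± 0.0366 with DMSO, between 1.63 and 1.70, although the level of each gene varied more between these libraries. With PF-9363 it was 3.68 ± 0.605, between 3.28 and 4.58, again highest in library 1 and above every DMSO library.

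Summed over the members alone, the balance of enzymes to inhibitors moved less. These sums leave out Mmp8 and Mmp9, which are not members. Mmp8 stood at 27.1 CPM per kilobase with DMSO and 98.7 with PF-9363, and Mmp9 at 20.4 and 103. The ratios below thus depend on which genes were chosen and do not give the balance of the whole family. The 5 metalloproteinases over the 3 inhibitors came to 4.89 ± 0.457 with luciferase and 5.18 ± 0.694 with SETBP1-D868N (SD, n = 3 each), with overlapping groups. It came to 5.81 ± 0.803 with DMSO and 4.22 ± 0.491 with PF-9363 (SD, n = 4 each), which also overlapped, at 4.64 to 6.36 and 3.60 to 4.79. Mmp12 made up 46.9% of the summed metalloproteinases with DMSO and 64.5% with PF-9363. Without Mmp12 the ratio stood at 2.48 to 3.31 with DMSO and 1.38 to 1.64 with PF-9363, with no overlap. Timp2 made up 81.9% of the summed inhibitors with DMSO and 83.0% with PF-9363.

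**Figure D4:**
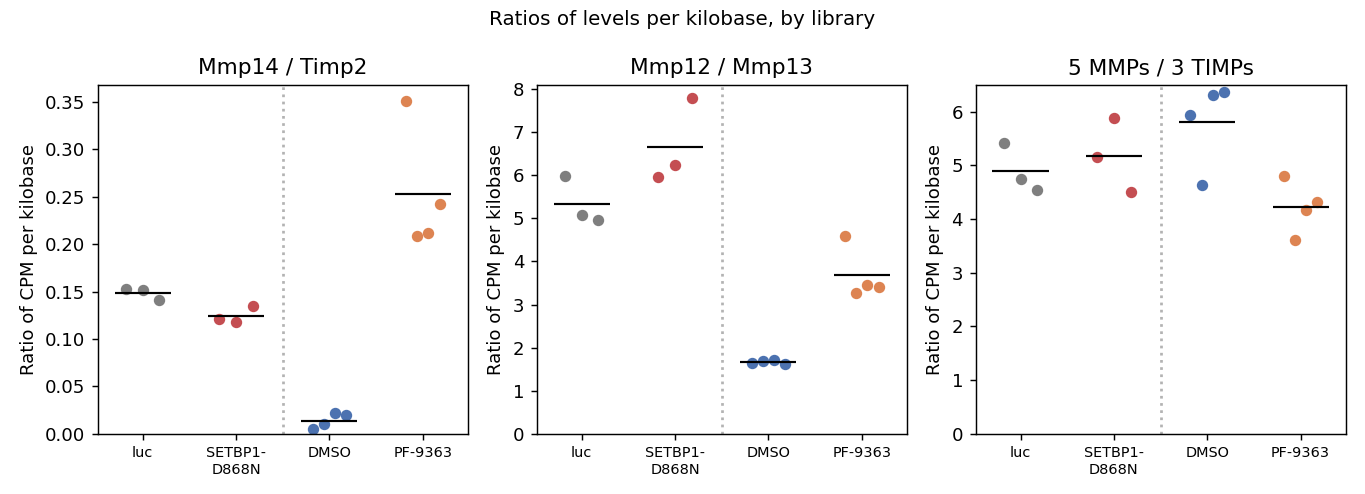
Ratios between members in CPM per kilobase, with points for libraries and bars for group means. The Mmp14 to Timp2 ratio lies between 0.00473 and 0.0214 in the 4 DMSO libraries and between 0.208 and 0.351 in the 4 PF-9363 libraries. The DMSO libraries held only 3 to 18 counts of Mmp14.

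Mmp12 and Mmp13 belong to a cluster of 10 metalloproteinase genes within 427 kb of chromosome 9. Besides them, only Mmp8, the neutrophil collagenase, was abundant, with 5917 to 10399 counts in each luciferase or SETBP1-D868N library and 590 to 2272 in each DMSO or PF-9363 library. Mmp27 held 62 to 103 counts in the former and 4 to 42 in the latter. The other 6 genes of the cluster (Mmp1a, Mmp1b, Mmp3, Mmp7, Mmp10 and Mmp20) held at most 7 counts in any library, and Mmp1a and Mmp3 held 0 in all 14. Expression from the cluster thus came from its Mmp13 and Mmp12 end and from Mmp8, with low counts between them.

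The other genes of the family are not members and are given with their tests, all by edgeR's quasi-likelihood test adjusted over all genes. Their lists, and those of activation and matrix genes below, were also drawn up with earlier results of these data known. The counts of genes called in them are therefore a description. Of 51 further genes of the metalloproteinase and inhibitor families, listed by name, 28 were tested in the first experiment. Of these, 12 were lower and 5 higher with SETBP1-D868N, with a median log2 fold change of -0.36. In the second, 18 were tested, of which 10 were higher and 1 was lower with PF-9363, with a median of 0.47. For all genes, 22.7% were lower and 24.5% higher in the first, and 36.6% higher and 39.4% lower in the second. Genes named for a count of 5 or fewer, outside the naming rule, were chosen after their values were seen.

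Of 18 other matrix metalloproteinases, 8 were tested with SETBP1-D868N. Mmp8, Mmp9, Mmp23 and Mmp27 were lower and Mmp2 was higher. Mmp9, the gelatinase of neutrophils and macrophages, fell from 177 ± 12.3 to 96.4 ± 8.95 CPM (log2 fold change -0.87, SE 0.085, edgeR adjusted p = 0.000484). Mmp8 fell from 152 ± 12.0 to 99.0 ± 11.7 CPM (edgeR adjusted p = 0.00898). Mmp2, the gelatinase that Mmp14 activates, rose from 3.40 ± 0.339 to 5.17 ± 0.0685 CPM, with a log2 fold change of 0.60 (edgeR adjusted p = 0.000272), while Mmp14 and Timp2 stood lower.

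With PF-9363, 7 other matrix metalloproteinases were tested, and Mmp8, Mmp9, Mmp11, Mmp24 and Mmp27 were higher. Mmp9 rose from 72.3 ± 4.84 to 364 ± 60.0 CPM (log2 fold change 2.33, SE 0.11, edgeR adjusted p = 6.33e-11). Mmp11 rose from 9.58 ± 1.00 to 40.4 ± 4.91 CPM (edgeR adjusted p = 2.20e-15) and Mmp8 from 65.6 ± 6.70 to 239 ± 21.5 CPM (edgeR adjusted p = 3.18e-18). Mmp27 rose from 0.900 ± 0.523 to 3.02 ± 1.05 CPM, from few counts (edgeR adjusted p = 0.000177). Mmp2 stood at 1.86 ± 0.221 and 2.51 ± 1.06 CPM and was not called (log2 fold change 0.39, SE 0.33, edgeR adjusted p = 0.280). All 5 had smaller log2 fold changes than Mmp14.

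Other inhibitors were few. Reck, a membrane-anchored inhibitor, fell from 14.7 ± 1.03 to 10.1 ± 0.593 CPM with SETBP1-D868N (edgeR adjusted p = 3.91e-05). With PF-9363 it stood at 5.93 ± 1.55 and 4.40 ± 0.986 CPM and was not called (log2 fold change -0.41, edgeR adjusted p = 0.102; -0.58 and 0.0215 without DMSO library 3), whereas Timp1, Timp2 and Timp3 all stood higher. Timp4 did not reach the filter in either experiment.

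Among 12 other genes of the ADAM family, listed by name and not by enzyme activity, 9 were tested with SETBP1-D868N. Adam9, Adam11, Adam19, Adam22 and Adam23 were lower, while Adam10 and Adam17, the main sheddases, were higher. Adam23 fell from 9.23 ± 1.33 to 3.18 ± 0.551 CPM (edgeR adjusted p = 2.08e-05) and Adam11 from 6.82 ± 0.182 to 2.84 ± 0.179 CPM (edgeR adjusted p = 4.07e-07). The rises of Adam10 (log2 fold change 0.07, edgeR adjusted p = 0.0259) and Adam17 (0.07, edgeR adjusted p = 0.0311) were small, and were lost in 4 and 6 of the 6 fits that leave out a library.

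With PF-9363, Adam9, Adam15 and Adam17 were higher and Adam19 was lower among 5 tested. Adam9 rose from 52.8 ± 2.75 to 236 ± 20.2 CPM (edgeR adjusted p = 5.68e-21), and its log2 fold change was 2.16, next to 1.96 for Adam8. Adam17 rose from 145 ± 3.81 to 219 ± 12.4 CPM (edgeR adjusted p = 7.52e-10). Adam10 stood at 307 ± 15.2 and 299 ± 11.1 CPM and was not called (edgeR adjusted p = 0.586).

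The ADAMTS proteases, secreted enzymes that cut proteoglycans and collagen precursors, held low counts. Of 19 genes, 10 were tested with SETBP1-D868N, where Adamts3 and Adamts6 were higher and Adamts5 and Adamts7 lower. The Adamts5 call was lost without luciferase library 1 or 3 or SETBP1-D868N library 1. Adamts3 rose from 1.93 ± 0.164 to 4.26 ± 0.184 CPM (edgeR adjusted p = 4.33e-06). With PF-9363, Adamts5 and Adamts7 were higher among 5 tested, and Adamts5 (edgeR adjusted p = 0.00559) lost the call without PF-9363 library 2 (edgeR adjusted p = 0.0580).

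Genes that activate these proteases or control shedding were mostly lower with SETBP1-D868N and mostly higher with PF-9363. Of 16, 12 were tested with SETBP1-D868N and 9 were lower, and 11 were tested with PF-9363, of which 7 were higher. Without SETBP1-D868N library 2, 5 and not 9 were lower in the first comparison. With PF-9363, Plau, the urokinase that generates plasmin, rose from 19.1 ± 2.33 to 83.7 ± 5.65 CPM (edgeR adjusted p = 3.22e-18). Its receptor Plaur rose from 130 ± 2.03 to 428 ± 23.9 CPM (edgeR adjusted p = 2.78e-20). Serpinb2, an inhibitor of Plau, rose from 5.04 ± 1.33 to 36.2 ± 7.31 CPM (edgeR adjusted p = 3.21e-12). Rhbdf2, a carrier of Adam17 to the cell surface, rose from 44.0 ± 3.07 to 135 ± 5.63 CPM (edgeR adjusted p = 5.39e-18).

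Matrix and matrix-binding proteins, the substrates, numbered 16. With SETBP1-D868N, 13 were tested and 9 were lower, among them fibronectin (Fn1), which fell from 187 ± 32.5 to 71.6 ± 14.5 CPM (edgeR adjusted p = 0.00773). With PF-9363, 9 were tested, 6 were higher and 2 (Fn1 and Sdc1) were lower. Fn1 fell from 98.5 ± 20.0 to 3.61 ± 0.741 CPM (edgeR adjusted p = 1.43e-10; log2 fold change -4.76, SE 0.19). The laminin chain Lama5 rose from 24.5 ± 4.87 to 196 ± 18.7 CPM (edgeR adjusted p = 1.40e-12) and Lamc1 from 12.9 ± 0.647 to 58.0 ± 3.48 CPM (edgeR adjusted p = 5.96e-18). The syndecan Sdc4 rose from 22.1 ± 2.14 to 146 ± 9.38 CPM (edgeR adjusted p = 6.48e-22) and osteopontin, Spp1, from 365 ± 42.9 to 1628 ± 255 CPM (edgeR adjusted p = 3.62e-08).

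Marker lists of cell types known to make the members differed between groups, not all in the direction of the members. The summed level of 8 macrophage markers was 697 to 699 CPM with luciferase and 432 to 454 with SETBP1-D868N, and 222 to 272 with DMSO and 1308 to 1458 with PF-9363, with all 8 lower in the first comparison and all 8 higher in the second. The summed 8 osteoclast markers stood at 376 to 391 and 242 to 258 CPM, and at 235 to 297 and 951 to 1115 CPM, with 5 of 7 tested lower and then 5 of 6 higher. In the first experiment Itgb3 alone held most of the osteoclast sum, at means of 293 CPM with luciferase and 190 with SETBP1-D868N. Ocstamp stood at 6.42 and 3.28 CPM there, and Oscar at 0.328 and 0.228. The osteoclast marker Calcr held 0 counts throughout the second experiment. The summed 8 neutrophil markers stood at 21919 to 22743 and 11904 to 14444 CPM (all 8 lower), and at 14392 to 17559 and 19023 to 20669 CPM (3 higher, 1 lower and 4 not called, with a median log2 fold change of 0.07). For all genes, 22.7% were lower and 24.5% higher in the first comparison, and 36.6% higher and 39.4% lower in the second. The part of these markers in the members' differences was not tested.

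Mast cell and basophil markers summed to 4705 to 4900.4 CPM with luciferase and 5044 to 5215 with SETBP1-D868N (3 higher, 5 lower of 8). With DMSO and PF-9363 they summed to 1092 to 1421 and 4318 to 5242 CPM, with 7 of 8 higher. Progenitor markers summed to 874 to 897 CPM with luciferase and 906 to 944 with SETBP1-D868N (4 higher, 3 lower of 8). They summed to 206 to 226 CPM with DMSO and 550 to 646 with PF-9363 (3 higher, 2 lower of 7 tested). Endothelial sums overlapped in both comparisons, at 501 to 510 and 492 to 523 CPM, and at 633 to 701 and 653 to 702 CPM. Stromal markers summed to 17.3 to 17.9 CPM with luciferase and 17.9 to 20.8 with SETBP1-D868N, with Dcn and Lum at 0. Of 3 tested, Col1a2 and Pdgfrb were higher, opposite to the members. The third, Col1a1, stood lower, as the members did, at means of 4.15 and 2.81 CPM. It was not called (log2 fold change -0.56, edgeR adjusted p = 0.0805). In the second experiment stromal markers summed to 2.63 to 4.03 CPM with DMSO and 6.54 to 8.55 with PF-9363. There Pdgfrb was higher of 2 tested, and Col1a2, Lum and Cxcl12 were at 0. Markers of lymphoid and erythroid lineages, which the label says were removed, summed to at most 3.04 CPM, and Cd3e, Ms4a1 and Klrb1c held 0 counts in the second experiment. Neutrophil and macrophage markers were thus present in cells labelled lineage-negative, after culture with cytokines.

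The genes whose pair of log2 fold changes lay nearest to Mmp14, among 11045 tested in both experiments, were Acod1, Avil, Ms4a14, Mcoln3 and Slamf8. Acod1 was nearest, at a distance of 0.17 on the log2 scale, with -0.75 and 5.55. Ms4a14, Mcoln3 and Slamf8 held at most 3 counts in any DMSO library, so their fitted fold changes depend on the prior count. Nearest to Timp2 were Kmt2c (distance 0.0242, with -0.59 and 1.56), Hip1, Ptgs2, Jak2 and Epas1. The measure uses 2 values per gene, and many genes lie close to Timp2 on it.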

How the data were processed

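The values are raw counts, which the authors deposited as 1 table of symbols per experiment, per the labels. STAR and DESeq2 and the builds GRCm38 and mm10 are named in the submitters' processing notes. The counting program, annotation and strand handling are not given in the sources used here. Per the labels' protocols, 500 ng of RNA entered a Watchmaker kit in the first experiment, and 100 ng went to Novogene in the second. Samples were grouped by title, and 0 columns were unmapped.

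Everything else was computed here in R 4.3.3. With edgeR 4.0.16, genes passing filterByExpr (minimum count 10, minimum total 15) were scaled by TMM and compared with edgeR's quasi-likelihood test (robust, group as the single factor), on all genes with Benjamini-Hochberg adjustment and a threshold of 0.05. SE is the absolute log2 fold change over the root of F. On simulated data with gene-wise dispersions, the share of false calls exceeded the nominal threshold in both comparisons, more in the first. Libraries of a group differed by 2.44 to 33.0 chi-square per degree of freedom, with luciferase library 1 apart from the other 2, so none was counted as a repeat.

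The members and lists were chosen with earlier results of these data known. Besides the members, up to 5 genes per list and comparison were named, by absolute log2 fold change of at least 1, adjusted p under 0.05 and a mean of at least 1 CPM, plus Mmp2, Mmp8, Mmp9, Adam10, Adam17, Timp4 and Reck. Genes of like pattern had the smallest Euclidean distance, with at least 5 CPM in a group. Lengths and positions are from GENCODE M21, promoters from RefSeq GRCm38.p6. Alternatives were RLE or library-size scaling, other filters, DESeq2 1.42.0, limma-voom (3.58.1), no robust estimation, a replicate block and leaving out each library. Some results are not reported here.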

Additional observations from a re-analysis of the deposited data

Results flagged for a closer look

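In groups of 4 libraries, a value was listed when its gap to the nearest other exceeded Dixon's critical share of the range. Chance lists about 1 in 20 groups. Of 64 groups of values from 33 genes, 7 were listed, and none belongs to the 9 members. In DMSO libraries these were Adam11 at 0.363 CPM in library 4 (the next at 0.200), Mmp9 at 79.5 CPM in library 4 (70.5), Adam9 at 48.7 CPM in library 3 (53.6) and Adamts5 at 0.397 CPM in library 1 (0.843). In PF-9363 libraries they were Adamts3 at 0.309 CPM in library 1 (the others at 0), Adamts5 at 3.22 CPM in library 2 (1.56) and Adam17 at 237 CPM in library 1 (213). The Adamts3 value equals the floor of 3 counts.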

How the results depend on the processing

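Log2 fold changes of the 9 members kept their sign under every alternative run, except Mmp19 with PF-9363, at -0.10 by library size alone against 0.13. Members past the threshold and lower with SETBP1-D868N numbered 7 to 8 when a library was left out, 8 with DESeq2 and 9 with limma-voom or without robust estimation. Of all genes, 3106 to 3480 were lower when a library was left out. Of all 15794 genes, 3496 were lower with DESeq2, 3637 with limma-voom and 3641 without robust estimation. Members higher with PF-9363 numbered 7 to 9 when a library was left out and 6 by library size alone. Of all genes, 4823 to 4959 were higher when a library was left out, and 3775 of 13456 by library size alone. The members were chosen on these contrasts, so nothing is read from these counts either.

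For other genes, Lamc1 with SETBP1-D868N was -0.06 with all libraries and -0.21 to 0.04 when a library was left out (0.0402 without luciferase library 1, 0.0199 without SETBP1-D868N library 1), and was not called in those 2 fits. Other ADAM genes higher with SETBP1-D868N numbered 2, but 1 with RLE factors or no filter, 0 with DESeq2 and 0 to 1 when a library was left out. ADAMTS genes with SETBP1-D868N numbered 1 to 2 higher and 0 to 2 lower when a library was left out. Activation and shedding genes lower with SETBP1-D868N numbered 9, but 5 by library size alone and 5 to 8 when a library was left out. With PF-9363, other ADAM genes lower numbered 2 and not 1 by library size alone or without the filter. ADAMTS genes higher with PF-9363 numbered 1 by library size alone and 1 to 2 when a library was left out, and ADAMTS genes lower numbered 1 by library size alone or without the filter. By library size alone, Reck (-0.64) and Adam10 (-0.27) were also lower with PF-9363. The causes were not tested, apart from the shift that library size alone gives to all genes.

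Replicate numbers did not pair the libraries: same-numbered deviations correlated at -0.18, -0.05 and -0.14 in the first experiment and between -0.04 and 0.01 in the second. With the number as a block, members called numbered 7 lower with SETBP1-D868N and 8 higher with PF-9363. Beside them, 3224 of all 15794 genes were lower and 4885 of all 13456 genes were higher. Under the block, other ADAM genes higher with SETBP1-D868N numbered 0, ADAMTS genes lower 1, and activation and substrate genes lower 6 each. Mmp8 (adjusted p = 0.0555 by edgeR) and Fn1 (adjusted p = 0.0682 by edgeR) lost their calls there. Depth limits Mmp14, Mmp25, Timp1 and Timp3 in the second experiment, where DMSO libraries held 3 to 37 counts of each.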

Other observations

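Syn1, the gene that holds Timp1 on the other strand, was chosen after its values were seen. It encodes a synapsin, a protein of nerve terminals. It held 11 to 19 counts per DMSO library and 144 to 241 per PF-9363 library (log2 fold change 3.96, SE 0.19, edgeR adjusted p = 5.77e-17). Timp1 held 13 to 37 and 43 to 74 counts in the same libraries. With SETBP1-D868N, Syn1 went from 187 to 243 counts with luciferase to 143 to 192 counts, a log2 fold change of -0.35 (edgeR adjusted p = 0.0453). Syn3, which holds Timp3, fell with SETBP1-D868N, at -1.04 on the log2 scale (SE 0.21, edgeR adjusted p = 0.00160). The 2 synapsin genes thus moved in opposite directions with PF-9363 in fitted value, but Syn3 was not called there, and whether they differ was not tested.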
